A study of Homo sapiens with 2 samples.

Results

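The tubulins described here are 10 genes, found in the table by gene name: the 3 alpha tubulin genes TUBA1A, TUBA1B and TUBA1C, the 6 beta tubulin genes TUBB, TUBB2A, TUBB2B, TUBB3, TUBB4B and TUBB6, and the gamma tubulin gene TUBG1. Each name matched 1 of the 23608 gene rows in the deposited table, and no row joined a tubulin with another gene name. The question asked of them was how the level of each mRNA in total RNA compares with its level among ribosome-protected fragments. The cells were SW13, a line from a human adrenal adenocarcinoma, grown in DMEM with 10% serum and no antibiotics and transfected at 80% confluence with 5 µg of Add2-Mhrt779 and Add2-Hotair, plasmids for the murine non-coding RNAs Mhrt779 and Hotair. Cells were collected 48 hours after transfection, and 1 library was made by RNA sequencing of total RNA and 1 by ribosome profiling, in which a nuclease removes RNA that ribosomes do not cover and the protected fragments, or footprints, are read. Both libraries come from transfected cells, no untransfected culture was analysed here, and neither assay has a replicate. In libraries from a whole culture, more cells with an mRNA and more of the mRNA per cell cannot be told apart.

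Alpha and beta tubulin form the dimer from which microtubules are built, and gamma tubulin sits in the ring complex that starts new microtubules at the centrosome. Cells hold several alpha and beta genes whose proteins, called isotypes, differ mainly near their carboxy-terminal end. Tubulin mRNAs are known for autoregulation: when free dimer is plentiful, TTC5 recognises the first residues of the growing tubulin chain on the ribosome and the mRNA is degraded.

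The first coding bases are shown because this autoregulation reads the start of the chain, and because they show how alike the copies are. They come from GENCODE 29 transcripts, 5′ to 3′ from the start codon, with the first 4 codons in capitals.
TUBA1A: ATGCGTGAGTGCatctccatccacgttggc
TUBB: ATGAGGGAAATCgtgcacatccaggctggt
TUBB2A: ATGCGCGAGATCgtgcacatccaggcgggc
TUBB2B: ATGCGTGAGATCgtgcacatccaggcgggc
TUBB6: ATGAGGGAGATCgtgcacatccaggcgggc
TUBG1: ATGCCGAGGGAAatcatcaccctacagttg
TUBA1B and TUBA1C had the same 30 bases as TUBA1A. The 6 beta genes were identical at 23 of these 30 bases.

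The other end of the coding region is where isotypes part. The last 30 coding bases of 5 beta genes are given with the stop codon in capitals.
TUBB: ttcggtgaggaggccgaagaggaggccTAA
TUBB2A: gaggaggaggagggcgaggacgaggctTAA
TUBB2B: gaggaggaggagggcgaggacgaggcgTAG
TUBB3: gaggagtcggaggcccagggccccaagTGA
TUBB6: gaggatgaggaagaggagatcgatggaTAG
Of the 27 bases before the stop codon, the 6 beta genes shared 5, counted by position from the stop codon.

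Whole coding regions were also close. The alpha genes were 96.3% to 97.3% identical to each other, and TUBB2A and TUBB2B were 98.1% identical. The 15 beta pairs ranged from 81.3% to 98.1%, and the 18 pairs of an alpha with a beta gene from 56.6% to 60.0%. A sequenced fragment can therefore match several tubulin rows. Of all 30-base windows in the coding region, 79.5% of those of TUBA1B, 72.4% of those of TUBA1A and 72.4% of those of TUBA1C also occurred in another of the 10 genes. The share was 76.5% for both TUBB2A and TUBB2B, 22.0% for TUBB3, 10.1% for TUBB4B, 9.60% for TUBB6, 1.15% for TUBB and 0 for TUBG1. Counting transcripts of any other annotated gene, it was 57.2% for TUBB, most often in TUBBP1, a pseudogene copy, and 47.9% for TUBG1, most often in TUBG2, its close paralogue. The 97.4% of TUBB3 came mostly from the overlapping gene model AC092143.1. Windows of 50 bases, the labelled read length, gave 68.3% for TUBA1B, 72.4% for TUBB2A, 1.55% for TUBB6 and 0 for TUBB within the 10 genes. No source used here says how the authors divided such fragments. The single rows of the alpha genes and of TUBB2A and TUBB2B are therefore uncertain, and class sums are given as well. The rows of TUBB and TUBG1 are uncertain too, since many of their windows occur in genes outside the 10. Class sums do not remove that uncertainty. For TUBB3, the overlapping gene model need not be a separate place in the genome, and no other deposited row overlapped that of TUBB3. Its windows shared within the 10 still leave that row uncertain.

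**Figure D1:**
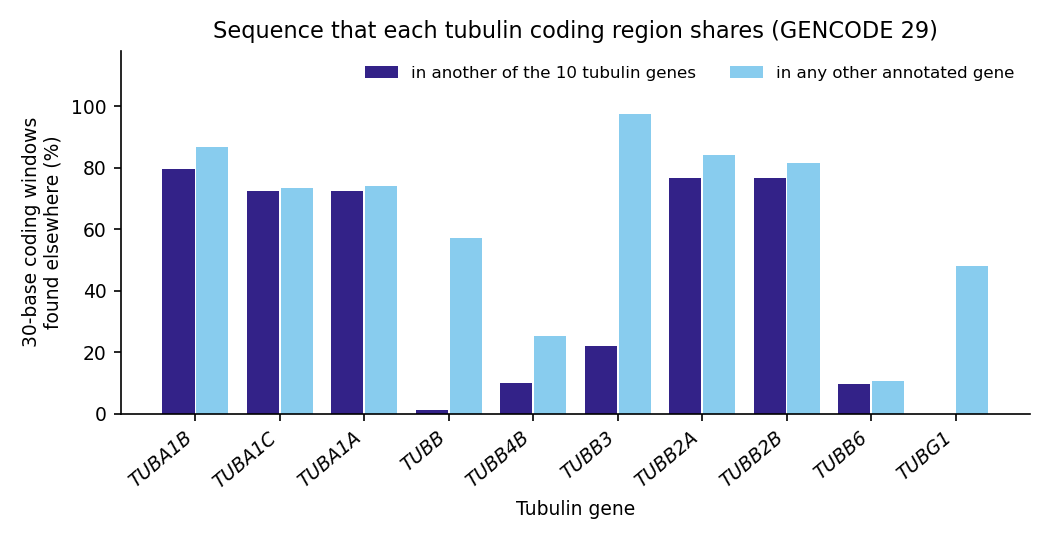
Percent of 30-base windows of each tubulin coding region (vertical axis) that also occur in a transcript of another of the 10 tubulin genes (dark bars) or of any other gene in GENCODE 29 (light bars), genes ordered by mean FPKM. The 3 alpha genes and TUBB2A with TUBB2B stand above 70% in the dark bars, and TUBB and TUBG1 are shared with genes outside the 10.

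Levels are in FPKM, the fragments of a gene per length of its transcript and per number mapped, which allows genes to be set beside each other within a library. In RNA sequencing, TUBA1B, the most widely expressed alpha gene, had 377 FPKM, TUBA1C had 310.2 FPKM and TUBA1A, the main alpha gene of developing neurons, had 240.3 FPKM. In ribosome profiling the same genes had 770.5, 725 and 564 FPKM. The order of the alpha genes was the same in both libraries, and each was higher in ribosome profiling as deposited.

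Among the beta genes, TUBB, the broadly expressed class I isotype, had 246 FPKM in total RNA and 413 FPKM among footprints. TUBB4B, also broadly expressed and a component of cilia, had 136 and 237 FPKM. TUBB3, the isotype used as a neuronal marker, had 101.2 and 130.3 FPKM. The pair that is nearly identical in sequence, TUBB2A and TUBB2B, had 82.9 and 69.9 FPKM in total RNA and 103 and 79.0 FPKM among footprints. TUBB6, the class V isotype, had 49.5 and 48.3 FPKM. The beta genes kept 1 order in both libraries, from TUBB at the top to TUBB6 at the bottom, and TUBB6 alone among them was not higher in ribosome profiling.

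TUBG1 was the lowest of the 10, with 17.3 FPKM in total RNA and 13.7 FPKM among footprints. For scale, the actin genes ACTB and ACTG1 had 759 and 801 FPKM in RNA sequencing, above every tubulin row, and GAPDH, a glycolytic enzyme, had 1192 FPKM. Among footprints ACTB, ACTG1 and GAPDH had 885, 992 and 1708 FPKM. Other neuron markers were low beside TUBB3 and TUBA1A: 12 such genes summed to 14.1 FPKM in total RNA and 18.95 FPKM among footprints, mostly NEFH at 8.67 and 12.3 FPKM, and RBFOX3, DCX and ELAVL4 were listed at 0 in both libraries. The labelled adrenal origin was checked against 12 markers of the adrenal cortex, of which 10 were listed at 0 in both libraries, among them NR5A1, STAR and CYP11A1, and the other 2 were NR0B1 and FDX1 with at most 4.10 FPKM.

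**Figure D2:**
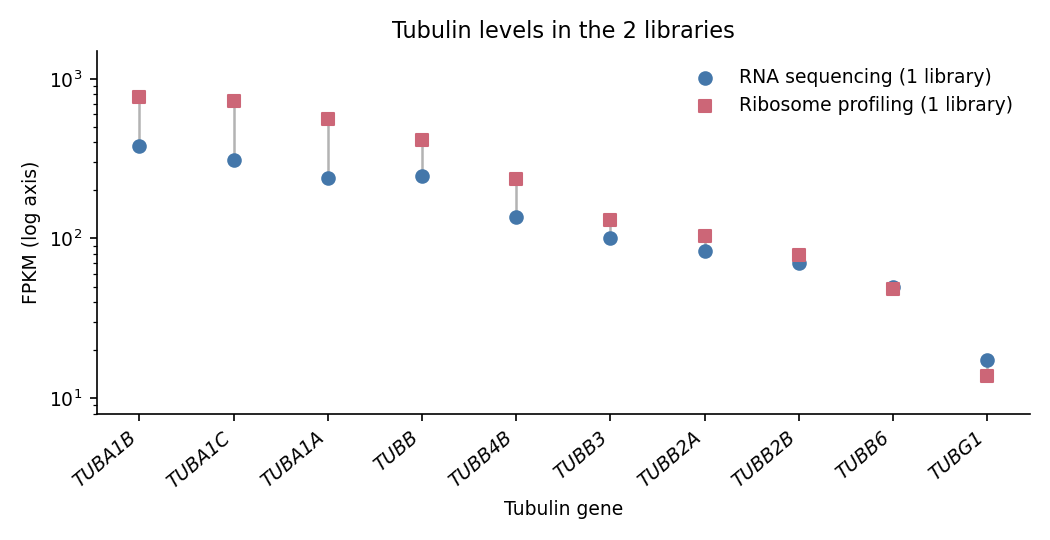
FPKM on a log axis for the 10 tubulin genes, ordered by mean FPKM, with circles for the 1 RNA sequencing library and squares for the 1 ribosome profiling library; no error can be drawn. The squares lie above the circles for 8 genes, and below them for TUBB6 and TUBG1.

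Ratios between the libraries are given as the log2(FPKM + 1) of ribosome profiling less that of RNA sequencing, with the median of the tested genes subtracted, where 1 FPKM is a pseudocount and tested genes have a mean of at least 10 FPKM over both libraries. All 10 tubulins passed, among 2734 tested genes. The median gene stood 0.39 above 0 on the log2 scale before it was subtracted, and folds below are relative to it. With 1 library per assay there is no test of these ratios, and the depth behind each FPKM is unknown.

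The 3 alpha genes had the highest ratios, the 6 beta genes came next and TUBG1 was lowest. Mean FPKM over both libraries gave the same order of classes. It was 402 to 574 for the alpha genes, 48.9 to 330 for the beta genes and 15.5 for TUBG1. The most abundant alpha gene, TUBA1B, had the lowest alpha ratio, and TUBB had a lower ratio than the less abundant TUBB4B. Among the other beta genes, the less abundant a gene was, the lower was its ratio. Whether the ratio goes with class or with abundance was not tested. TUBA1A lay 1.79-fold above the median gene, TUBA1C 1.78-fold above and TUBA1B 1.56-fold above, at log2 ratios of 0.84, 0.83 and 0.64. In the ranking of all tested genes, 83.1% had a lower ratio than TUBA1A and 77.4% a lower one than TUBA1B. TUBB4B lay 1.33-fold above and TUBB 1.28-fold above, at 0.41 and 0.36. TUBB3, TUBB2A and TUBB2B were near the median gene, at -0.03, -0.08 and -0.21. TUBB6 lay 1.34-fold below it, at -0.42, and TUBG1 1.63-fold below, at -0.71. The abundant mRNAs of ACTB, ACTG1 and GAPDH had ratios of -0.17, -0.08 and 0.13.

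No tubulin of the 10 reached 2-fold above the median gene, against 13.1% of all tested genes, and none reached 2-fold below it, against 19.7%. The median ratio over the 10 was 0.17, beside 0 over all tested genes by construction. Without subtracting the median, 23.6% of tested genes were at least 2-fold higher and 14.2% at least 2-fold lower in ribosome profiling, and the 3 alpha genes then passed 2-fold.

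In the authors' deposited table none of the 10 rows was called significant, where 1.30% of the 4849 rows with the status OK were called. The deposited log2 ratio was 1.23 for TUBA1A (standard error 1.24, q = 0.660) and -0.34 for TUBG1 (standard error 0.87, q = 0.890). The standard error is the authors' model error, taken as the ratio over their statistic, and holds no spread between cultures. For the 10 rows the authors' deposited table has raw p-values between 0.321 and 0.968, and all 10 of the 95% intervals from its errors held 0. TUBB had the status NOTEST there, as did all 238 rows placed on alternative haplotype sequences.

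The difference between members was set against the same error. For TUBA1A minus TUBG1, the widest of the 45 pairs, the difference in log2 ratio in the authors' deposited table was 1.57. Its standard error was 1.51, taking the errors of both rows as independent, and its 95% interval ran from -1.39 to 4.53. None of the 45 intervals left out 0. No neighbours in the order, nor alpha and beta genes, can be told apart at this error, which also does not show that their ratios are equal.

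**Figure D3:**
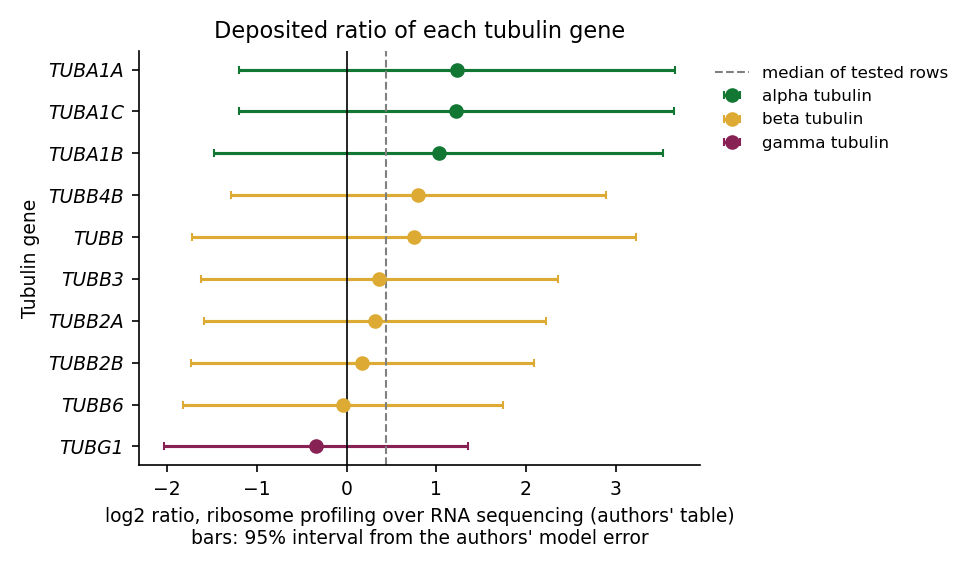
Log2 ratio of each tubulin gene in the authors' deposited table, with RNA sequencing as the denominator, with bars for the 95% interval from the authors' model error and a dashed line at the median of tested rows. The alpha genes sit at 1.03 to 1.23 and TUBG1 at -0.34, and every interval holds 0.

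Sums over a class depend less on how fragments were divided within it, but still on fragments that match genes outside it, as for TUBB. The 3 alpha genes summed to 928 FPKM in total RNA and 2059 FPKM among footprints, 1.69-fold above the median gene. The 6 beta genes summed to 685 and 1011 FPKM, 1.13-fold above it. The alpha sum was thus 1.35 times the beta sum in total RNA and 2.04 times among footprints, a shift of 1.504 times that needs no scaling between libraries. Over 7 other choices of rows or of length correction the shift ran from 1.46 to 1.72 times. The choices that left out TUBA1A, TUBA1B or TUBA1C alone, and the length correction, were not planned. The alpha to beta ratio itself moved by more: without TUBA1B it was 0.804 and 1.27, without TUBA1C 0.902 and 1.32, and without TUBB, as in the rows with the status OK alone, 2.11 and 3.45. These sums carry no error of their own, and the errors of the single rows above are larger than the shift.

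Within the alpha class the isotype shares were similar in both libraries. TUBA1B made up 40.7% of the alpha sum in total RNA and 37.4% among footprints, TUBA1C 33.4% and 35.2%, and TUBA1A 25.9% and 27.4%. The widest difference, ribosome profiling minus RNA sequencing, was that of TUBA1B at -3.23 percentage points.

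Within the beta class the 2 most abundant genes took more of the ribosome profiling sum. TUBB made up 35.9% of the beta sum in total RNA and 40.9% among footprints, and TUBB4B 19.8% and 23.4%. The other 4 each had a smaller share in ribosome profiling: TUBB3 had 14.8% and 12.9%, TUBB2A 12.1% and 10.2%, TUBB2B 10.2% and 7.82%, and TUBB6 7.23% and 4.78%. With TUBB left out, as in the rows with the status OK alone, the shares of the other 5 were over 1.5 times larger, TUBB4B at 30.9% and 39.6% and TUBB6 at 11.3% and 8.08%. No interval can be given for these shares, because the fragments behind them are unknown.

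**Figure D4:**
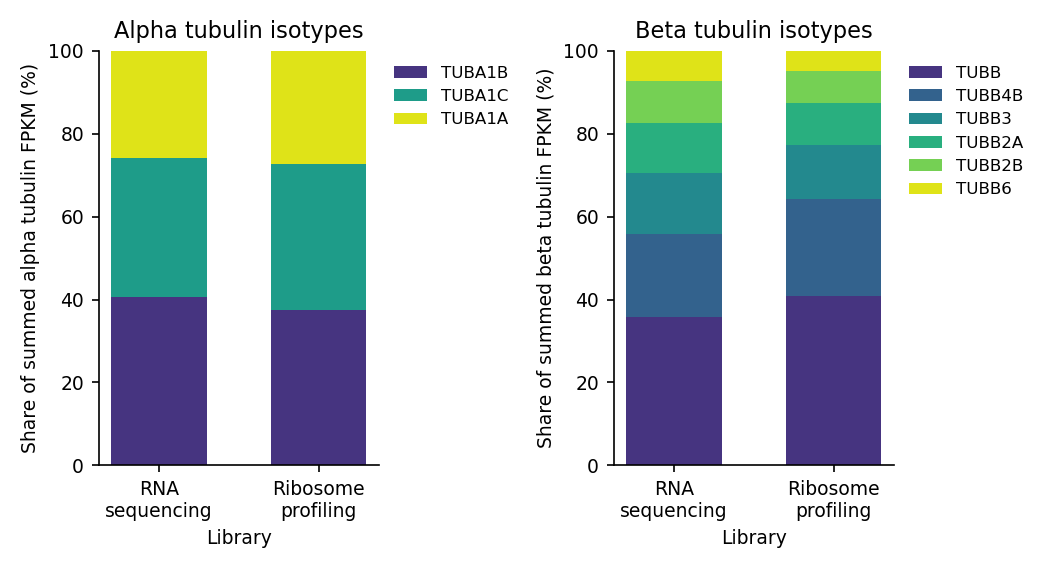
Stacked bars of each isotype's share, in percent, of the summed alpha tubulin FPKM (left) and beta tubulin FPKM (right) by library, with 1 RNA sequencing and 1 ribosome profiling library. TUBB and TUBB4B take a larger part of the ribosome profiling bar, and the alpha shares are close, the widest difference being that of TUBA1B at -3.23 points.

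FPKM divides by the whole transcript, while ribosomes lie mainly on its coding part, so the coding share of each transcript is given beside the ratios. In the principal GENCODE 29 transcripts it was 83.3% for TUBA1B, 70.8% for TUBA1A and 45.0% for TUBA1C, although another TUBA1C transcript reaches 92.0%, and no source used here names the transcripts behind the authors' values. It was 50.0% for TUBB, 65.0% for TUBB6, 66.2% for TUBB2B, 76.5% for TUBB3, 81.7% for TUBB4B, 83.9% for TUBB2A and 84.2% for TUBG1, with a median of 54.3% over 2177 tested genes that had a value. Over the annotated coding transcripts of a gene, the share ran from 27.5% to 80.9% for TUBB6 and from 39.5% to 78.4% for TUBB3. For TUBA1A it ran from 70.7% to 90.4% and for TUBB from 39.6% to 50.0%. The values below use the principal transcript alone. Across the 10 tubulins, which share sequence, Spearman's rho between coding share and ratio was -0.30, and across the 2177 genes it was 0.084. With ribosome profiling FPKM divided by the coding share, an alternative added after looking at the data, TUBA1C had a ratio of 1.04, TUBB 0.41, TUBA1A 0.39 and TUBA1B -0.05, so that the alpha genes no longer all stood above the beta genes. TUBG1 was again the lowest, at -1.42. In that setting 18.2% of tested genes reached 2-fold above the median gene and 16.9% reached 2-fold below.

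The rows of these genes lie at separate places in hg19. TUBA1B is on chromosome 12 from 49521567 to 49525304, TUBA1A from 49578578 to 49583107 and TUBA1C from 49658865 to 49667113, so that the 3 alpha genes are neighbours. TUBB2A is on chromosome 6 from 3153902 to 3157783 and TUBB2B from 3224495 to 3227968. The TUBB row is placed on the alternative haplotype sequence chr6_ssto_hap7 from 2020464 to 2025502. The window shares above compare genes of different names, so any copy of TUBB on another such sequence is not counted in them. TUBB3 is on chromosome 16 from 89988417 to 90002505, TUBB4B on chromosome 9 from 140135711 to 140142222, TUBB6 on chromosome 18 from 12308257 to 12326568 and TUBG1 on chromosome 17 from 40731526 to 40767256. The spans are those of the deposited rows and can reach past the bounds of the named gene. Those of TUBB4B and TUBG1 overlap the rows of FAM166A, listed at 0 in both libraries, and FAM134C, with 3.30 and 2.49 FPKM.

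Other tubulin genes were low. Of 13 further rows, 3 were tested and none was 2-fold from the median gene, against 13.1% of all tested genes above and 19.7% below. TUBB4A, a brain isotype, had 26.3 FPKM in total RNA and 48.1 among footprints, and TUBB8 had 12.3 and 17.3 FPKM. TUBA4B had 7.53 and 15.4 FPKM and passed the filter only through ribosome profiling. The second gamma gene, TUBG2, had 9.95 and 4.82 FPKM. The 3 tested genes nearest to TUBA1B by distance of log2(FPKM + 1) over the 2 libraries were the histone gene HIST2H2AA3 at a distance of 0.13, the chaperone gene HSP90AA1 at 0.17 and the histone gene HIST1H3F at 0.23.

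New tubulin is folded by prefoldin, the TRiC chaperonin and the tubulin cofactors, and genes of this route were set beside the tubulins. TRiC, whose ring encloses tubulin and actin while they fold, had all 8 subunits tested and none 2-fold from the median gene, with a median ratio of 0.41. CCT3 had 70.3 and 120.7 FPKM, CCT7 had 65.6 and 113 FPKM, CCT8 stood highest with 44.2 and 102 FPKM, and TCP1 lowest with 66.9 and 78.2 FPKM. Of 5 tested prefoldin genes, PFDN6 was 2.82-fold above, at 23.9 and 90.9 FPKM, and none was 2-fold below, beside those same shares. PFDN6 had the status NOTEST in the authors' deposited table. The prefoldin median was 0.18, and 0.125 with the rows of status OK alone. PFDN5 was the lowest with 91.3 and 107 FPKM. PFDN4 had 9.69 and 18.1 FPKM and passed the filter only through ribosome profiling.

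Only 3 of 7 cofactor rows were tested. TBCA, which holds beta tubulin after its release from TRiC, had 41.8 FPKM in total RNA and 181 among footprints, 3.25-fold above the median gene. ARL2, a small GTPase that works with the cofactors, had 7.84 and 26.0 FPKM in a row shared with ARL2-SNX15, 2.34-fold above, and passed the filter only through ribosome profiling. TBCB, which binds alpha tubulin, had 41.4 and 30.4 FPKM, 1.76-fold below. The median of these 3 is the ratio of ARL2, 1.23, and is no support for a direction of the list. The authors' deposited table gave TBCA a log2 ratio of 2.12, a standard error of 0.88 and q = 0.218, which is no call.

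Of the gamma tubulin ring complex list, which holds the partners of TUBG1, 2 of 12 rows were tested. Both lay more than 2-fold below the median gene, where 19.7% of all tested genes were at least 2-fold below. MZT2A had 57.5 FPKM in total RNA and 23.5 among footprints, 3.12-fold below, and MZT2B had 54.2 and 20.5 FPKM, 3.36-fold below. These 2 small proteins bind the complex and their genes are near-identical copies, so they are not separate observations. The authors' deposited table called neither, with q-values of 0.523 and 0.477. The complex's core genes TUBGCP2 to TUBGCP6 did not reach the filter, and TUBGCP2 had 3.10 and 5.27 FPKM.

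For autoregulation itself little could be measured. TTC5 had 0.67 FPKM in total RNA and 4.68 among footprints and was not tested. The 1 tested gene of this list was CNOT1, the scaffold of the deadenylase complex that degrades the mRNA, with 13.2 and 8.13 FPKM, 2.04-fold below the median gene. It passed the filter only through RNA sequencing, and with a pseudocount of 5 its ratio of -1.03 became -0.80, short of 2-fold. CNOT7, a deadenylase of that complex, had 9.85 and 0.99 FPKM and fell short of the filter.

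**Figure D5:**
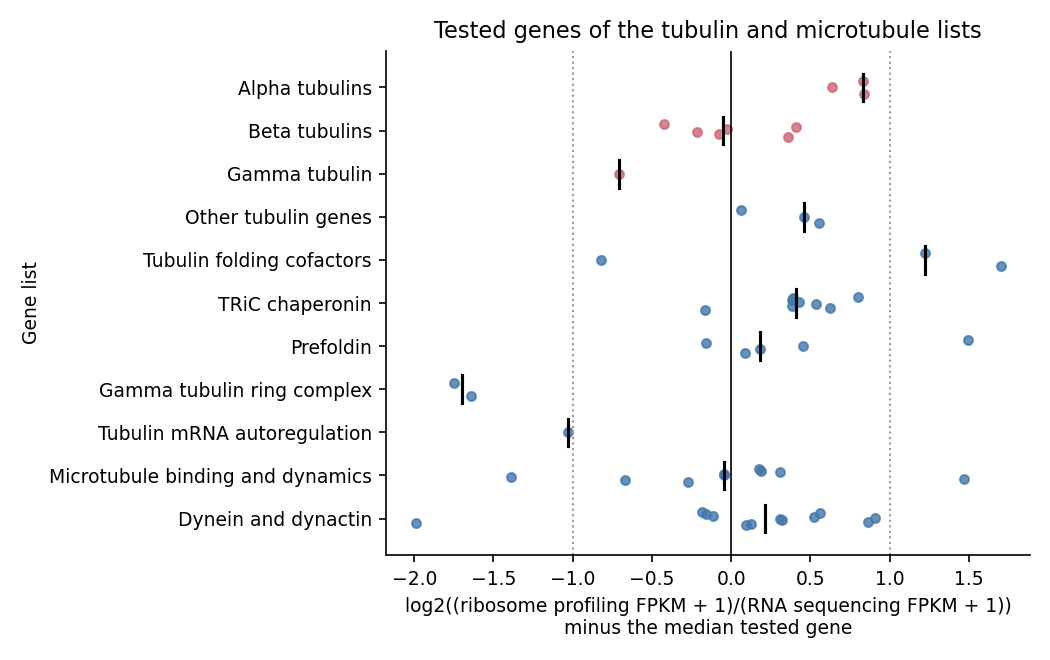
Ratio on the log2(FPKM + 1) scale with the median of tested genes at 0 (horizontal axis) for each tested gene of the tubulin lists (red) and of 8 other tubulin and microtubule lists (blue), with black ticks at list medians and dotted lines at 2-fold. All 10 tubulins lie between the dotted lines, the folding cofactors reach 1.70 and both tested ring complex genes lie below -1.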

How the data were processed

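Total RNA and ribosome-protected RNA of transfected SW13 cells were each measured in 1 library of 50 nt paired-end reads, per the labels' protocols. The submitters' processing notes name, without saying what each did, bedtools 2.16.1, TopHat2 2.0.8b, SAMtools 0.1.18 and Bowtie2 2.0.0.6, and as builds mm10 and hg19. The program behind the table and its treatment of fragments with several matches were not given in the sources used here. The table was used as deposited: 1 FPKM value per gene and library as the authors computed it, and the authors' log2 ratio, statistic, p-value and q-value, per the file headers. Reading the statistic as a normal deviate gave back the deposited p-value (two-sided, within 0.001) in 100% of finite rows with the status OK, so the standard error was taken as ratio over statistic. Rows with the status FAIL or HIDATA were not tested. Python 3.11.15, pandas 2.3.3 and Biopython 1.88 were used. The centring step was also run on simulated data with a constant shift between the libraries. That setting is simpler than these data and does not show that the centring is right for them. Coding sequences came from the principal GENCODE 29 transcript, whose build differs from hg19, so no coordinates were taken from it. The depth per library is unknown, since FPKM keeps no fragment count. The members, gene lists and tests were chosen with earlier results of these data known. Named genes were all members, in each list the 2 most abundant tested genes and the extremes of the ratio, TTC5, STMN1, MAP4, ACTB, ACTG1 and GAPDH, and the 3 genes nearest to the most abundant member. Outside this rule, TUBG2, TUBGCP2, ARL2, PFDN4, DPYSL2, DCTN1, DCTN5, PAFAH1B1, CNOT7, TTL, CCDC23 and the cell type markers were named after their values were seen. Alternatives covered pseudocounts of 0.1 and 5, filters of 1 and 30 FPKM and none, status OK rows, centring and the rows summed, and a correction for coding share was added after looking at the data.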

Additional observations from a re-analysis of the deposited data

How the results depend on the processing

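No paired analysis was possible because each assay has 1 library, and no replicate could be left out. The number of tubulins at least 2-fold above the median gene was 0 as reported, 3 with a filter of 1 FPKM (15.5% of all genes then tested), 5 with no filter (16.1%), 3 without centring (23.6%) and 1 with the coding share taken into account (18.2%). The number at least 2-fold below was 0 as reported and 1 with the coding share (16.9%). With a lower filter the median gene itself moved, from 0.39 before centring to -0.16 with a filter of 1 FPKM and -0.28 with none, while the tubulin FPKM were the same. The summed alpha genes stayed above the median gene in all settings run, from 0.51 with the coding share to 1.43 with no filter. The summed beta genes changed sign, with -0.0043 at a filter of 30 FPKM and -0.11 with the coding share, against 0.17 as reported. Every alpha gene stood above every beta gene in each setting other than the coding share, and TUBG1 was the lowest wherever it was kept, a filter of 30 FPKM leaving it out. List medians moved as well: that of the folding cofactors was 1.23 as reported, 0.26 when 30 FPKM were required and 0.28 when nothing was required. For the ring complex list the same medians were -1.70, -1.87 and -0.09, for TRiC 0.41, 0.23 and 1.08, and for prefoldin 0.18, 0.0067 and 0.99. Beta isotype shares moved by over 1.5 times without TUBB. The depth is unknown, so what it limits could not be computed.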

Other observations

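Genes whose proteins bind microtubules were spread on both sides of the median gene. Of 31 rows for microtubule binding and dynamics 9 were tested, with a median of -0.04. Of these 9, 1 was at least 2-fold above and 1 at least 2-fold below, against 13.1% and 19.7% of all tested genes. Both exceptions are stathmins, which bind tubulin dimers: STMN1 had 30.6 FPKM in total RNA and 114 among footprints, 2.77-fold above, and STMN3 had 20.4 and 9.67 FPKM, 2.62-fold below, and passed the filter only through RNA sequencing. The authors' deposited table called neither, with q-values of 0.321 and 0.572 and intervals of the log2 ratio from 0.091 to 3.69 and from -2.77 to 0.62. TPX2, a spindle assembly factor, had 31.4 and 51.5 FPKM, and MAP4, the widely expressed microtubule-associated protein, had 16.7 and 18.2 FPKM. DPYSL2, whose ratio is the median of this list, had 9.79 and 12.7 FPKM and passed the filter only through ribosome profiling.

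Dynein and dynactin, the motor that walks on microtubules and its activator, had 12 of 23 genes tested. None was 2-fold above and 1 was at least 2-fold below, against 13.1% and 19.7% of all tested genes. The median was 0.22. DCTN1, DCTN5 and PAFAH1B1 passed the filter only through ribosome profiling. DYNLL1 and DYNLL2 encode nearly identical light chains, and the difference between them was not tested: DYNLL1 had 66.0 and 94.8 FPKM, 1.09-fold above the median gene, and DYNLL2 had 16.0 and 4.59 FPKM, 3.97-fold below, passing the filter only through RNA sequencing. DYNLL2 was not called in the authors' deposited table, with q = 0.431. DYNLRB1 had 31.0 and 75.1 FPKM and DCTN3 had 10.6 and 27.7 FPKM, the highest ratio of this list. None of the 19 rows for tubulin-modifying enzymes reached the filter, where the highest values were 7.38 FPKM in total RNA, for the tyrosine ligase TTL, and 5.80 FPKM among footprints, for CCDC23.

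Keratins 8 and 18 were present, KRT18 with 57.2 and 138.8 FPKM, and VIM, a filament gene of mesenchymal cells, had 490 and 707 FPKM. The epithelial genes EPCAM, CDH1 and KRT19 and the mesenchymal gene COL1A2 were listed at 0 in both libraries, and the mesenchymal genes COL1A1, CDH2 and FN1 had 0.39 and 0.45, 3.33 and 6.02, and 2.96 and 11.7 FPKM.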
